A study of Rattus norvegicus with 43 samples.

Results

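The genes described here carry short-chain fatty acids into colon cells, sense them at the cell surface or activate them for use. 9 genes were listed by symbol: the monocarboxylate transporters Slc16a1 and Slc16a3, the sodium-coupled transporter Slc5a8, the transporter chaperone Bsg, the receptors Ffar2, Ffar3 and Hcar2, and the acetyl-CoA synthetases Acss2 and Acss1. Each was read from the probe set annotated with its symbol alone, the one of highest mean over the 43 arrays where a gene had several. 8 of the 9 genes had such a probe set, and all 8 were among the 10934 genes tested, out of 14506 with a probe set of 1 symbol. The probe set for Acss1 also carries the symbol of Vsx1, so no value is given for Acss1.

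The samples were distal colon tissue of 11-week-old Sprague Dawley rats, with 1 rat per array and 100 ng of total RNA as input. There were 5 rats on the control diet (CON), 7 on LAMS, 8 on HAMS, 9 on HAMSB, 6 on LAW and 8 on HAW. The labels give the diets as codes only. From what is known of the study, LAMS and HAMS are low- and high-amylose maize starch, HAMSB is butyrylated high-amylose maize starch, LAW and HAW are low- and high-amylose wheat, and all but CON are Western diets. Samples labelled HAM were taken as HAMS. The tissue is whole colon wall, so fewer cells of a type and less RNA per cell cannot be told apart. All 10 epithelial markers listed (such as Epcam, Vil1 and Krt8) were measured, with a mean level between 10.81 (HAMS) and 11.14 (HAW) on the log2 scale.

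Short-chain fatty acids, mainly acetate, propionate and butyrate, are made by gut bacteria from starch and fibre that escape digestion in the small intestine. Colon epithelial cells take them up through the monocarboxylate transporter MCT1, encoded by Slc16a1, and through the sodium-coupled transporter SMCT1, encoded by Slc5a8, and burn butyrate as a main fuel. MCT1 and MCT4 (Slc16a3) need basigin, the Bsg product, to reach the cell surface. Ffar2 and Ffar3 are receptors for short-chain fatty acids, and Hcar2 is a receptor for butyrate, beta-hydroxybutyrate and niacin. Acss2 makes acetyl-CoA from acetate in the cytosol and nucleus, and Acss1 does so in mitochondria.

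The sequences upstream of Slc16a1, Slc5a8, Bsg and Acss2 are shown, since these 4 genes varied together from rat to rat within diets in the arrays with high B cell marker levels, though none of their pairs passed the test in the 25 arrays with low levels. Varying together in this way was not shown to be particular to these genes. Each run is the 250 bases before the annotated start of the transcript given by RefSeq, build GRCr8, written 5′ to 3′ on the gene's strand. Of the 9 genes, 7 had an entry there. Capitals mark the GC box GGGCGG and the E-box CACGTG, searched on both strands, so that a GC box on the other strand reads CCGCCC. The Slc16a1 run lies at chr2:194812410-194812659 on the plus strand, the Acss2 run at chr3:164464453-164464702 on the plus strand, the Slc5a8 run at chr7:25160030-25160279 on the plus strand and the Bsg run at chr7:10651006-10651255 on the minus strand.
Slc16a1: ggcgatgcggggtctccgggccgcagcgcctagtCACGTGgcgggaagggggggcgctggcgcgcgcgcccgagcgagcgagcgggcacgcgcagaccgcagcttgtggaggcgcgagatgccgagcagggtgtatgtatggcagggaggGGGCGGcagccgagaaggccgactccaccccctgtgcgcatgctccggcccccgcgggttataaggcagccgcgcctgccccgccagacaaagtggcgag
Acss2: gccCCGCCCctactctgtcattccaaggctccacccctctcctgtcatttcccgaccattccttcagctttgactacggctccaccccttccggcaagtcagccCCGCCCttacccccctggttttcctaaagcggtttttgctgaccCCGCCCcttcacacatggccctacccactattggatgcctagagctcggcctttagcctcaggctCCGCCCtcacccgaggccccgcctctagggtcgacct
Slc5a8: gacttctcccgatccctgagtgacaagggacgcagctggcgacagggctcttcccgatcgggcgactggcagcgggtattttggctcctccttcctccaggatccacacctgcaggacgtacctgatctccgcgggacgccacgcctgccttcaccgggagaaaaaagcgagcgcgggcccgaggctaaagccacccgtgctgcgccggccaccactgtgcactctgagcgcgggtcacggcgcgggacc
Bsg: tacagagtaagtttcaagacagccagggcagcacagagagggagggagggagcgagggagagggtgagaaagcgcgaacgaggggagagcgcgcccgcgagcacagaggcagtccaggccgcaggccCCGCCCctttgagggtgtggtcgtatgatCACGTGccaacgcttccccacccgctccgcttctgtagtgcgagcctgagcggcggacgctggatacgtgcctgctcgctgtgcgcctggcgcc
Slc16a1 and Bsg each hold 1 GC box and 1 E-box, Acss2 holds 4 GC boxes, and Slc5a8 holds neither motif. Among the members not shown, Ffar3 also holds 1 GC box, and Slc16a3 and Ffar2 hold neither motif. Among 33469 annotated promoters of the same length, 30.5% held a GC box and 5.59% an E-box. These shares are not from promoters of like base content. G and C made up 74.0% of the Slc16a1 run, 66.8% of Slc5a8, 66.4% of Bsg and 62.0% of Acss2, beside a median of 51.2%. The Slc16a1 run holds 33 CpG dinucleotides, the Slc5a8 run 25, the Bsg run 23 and the Acss2 run 12, beside a median of 5 over all promoters. The letters of the TATA box, TATAAA, were in 12.9% of promoters and in none of these 4 runs. The Slc16a1 and Acss2 runs lie inside the spans of their genes (chr2:194805556-194832966 and chr3:164464124-164507607), whose annotation holds transcripts that start farther upstream. The Slc5a8 and Bsg runs adjoin theirs (chr7:25160280-25201185 and chr7:10643788-10651005). These matches describe the letters only.

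Signal differed widely between the genes' probe sets, and these levels are not compared as amounts, since probe sets differ in response. The medians of Slc16a1, Slc5a8, Bsg and Acss2 lay at or above the 95.9th percentile of probe sets with a symbol, and that of Slc16a3 at the 72.7th percentile. The receptors Ffar2, Ffar3 and Hcar2 lay between the 39.9th and the 42.4th percentile, about 1 log2 unit above the low-signal floor of 4.75. Differences of the receptors were therefore read from dim probe sets.

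The first question was whether any of the genes differed over the 6 diets. In limma's moderated F test with Benjamini-Hochberg adjustment over 10934 genes, 3 of the 8 genes changed: Acss2 (adjusted p = 0.0327), Hcar2 (adjusted p = 0.0411) and Slc16a1 (adjusted p = 0.0458). Over all genes tested 30.7% passed the same test, so 3 of 8 is close to the background. Without HAMS replicate 2 or HAMS replicate 6 the count was 0, and it was 5 without HAMS replicate 1 or HAW replicate 8 and 1 without each of 11 other arrays. Ffar3 (adjusted p = 0.0745), Slc5a8 (0.0813) and Bsg (0.0843) missed the threshold of 0.05, as did Slc16a3 (0.219) and Ffar2 (0.701). HAMS had the lowest mean for 6 of the 8 genes, and for none of the 8 did diets next to each other in the order of means differ (the lowest adjusted p of the limma tests between neighbours was 0.119).

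**Figure D1:**
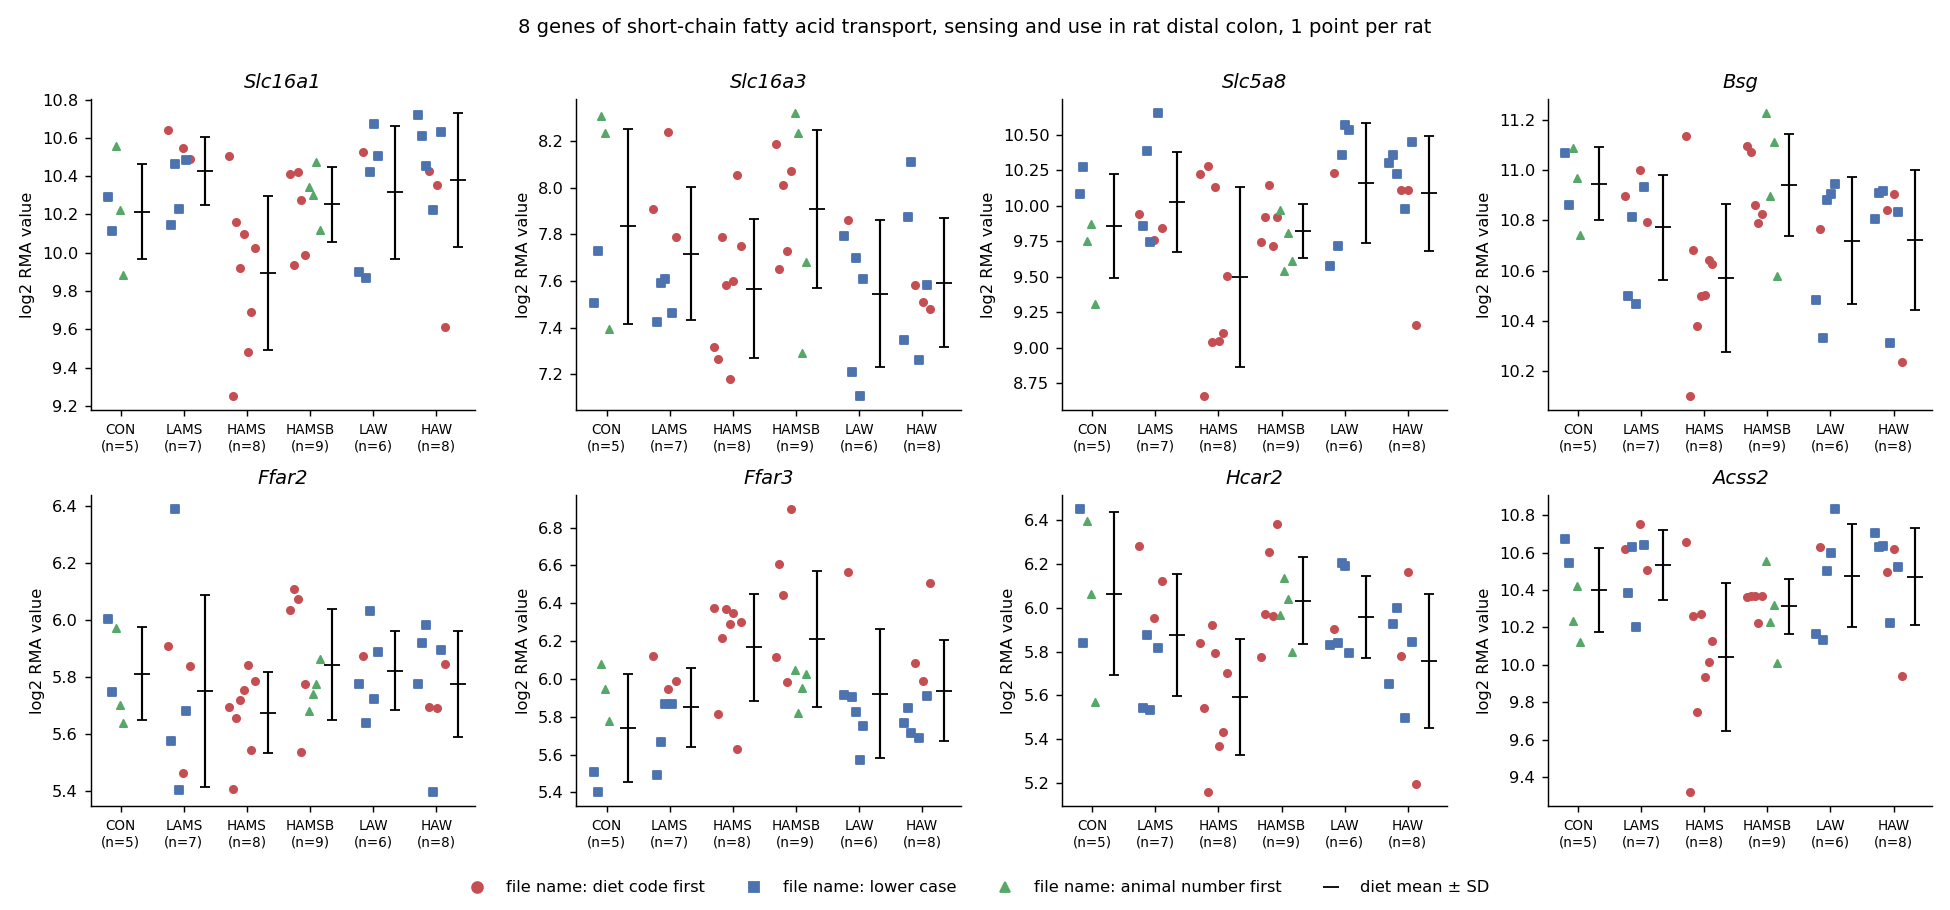
Deposited log2 RMA values (y axis) of the 8 genes by diet (x axis), with 1 point per rat, point shape and colour for how the array file is named, and the diet mean ± SD in black. The HAMS rats spread from 9.25 to 10.51 for Slc16a1 and from 8.66 to 10.28 for Slc5a8. The range of every diet overlaps that of every other for each of the 8 genes.

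Slc16a1, the main butyrate uptake transporter of the epithelium, was lower on HAMS than on LAMS. In CON rats its values were 10.29, 10.12, 10.56, 10.22 and 9.88 log2 units. The lowest, median and highest values were 10.15, 10.48 and 10.64 on LAMS and 9.25, 9.97 and 10.51 on HAMS. They were 9.93, 10.30 and 10.47 on HAMSB, 9.87, 10.46 and 10.68 on LAW, and 9.61, 10.44 and 10.72 on HAW. 6 of the 8 HAMS rats lay below the lowest LAMS rat, and the other two overlapped the LAMS range. The means were 10.43 ± 0.18 (SD, n = 7) on LAMS and 9.89 ± 0.40 (SD, n = 8) on HAMS. The difference, HAMS minus LAMS, was -0.54 ± 0.15 (SE), 0.690 of the LAMS level, with an adjusted p of 0.0198 in limma. Without HAMS replicate 2 it was -0.44 (adjusted p = 0.0512) and without HAMS replicate 6 it was -0.48 (adjusted p = 0.0532). On HAW the mean was 10.38 ± 0.35 (SD, n = 8), 0.49 ± 0.15 (SE) log2 units above HAMS (adjusted p = 0.0268, limma), a call lost without any one of HAMS replicates 2, 6 and 7 and HAW replicates 1, 2, 3 and 7 (0.39 to 0.48, highest adjusted p = 0.0766). HAMSB, with a mean of 10.25 ± 0.19 (SD, n = 9), was 0.36 ± 0.14 (SE) above HAMS, which missed the threshold (adjusted p = 0.0695).

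Slc5a8, the sodium-coupled transporter, had the widest spread among the 8 genes, with a within-diet SD of 0.42 log2 units that lay at the 92.3rd percentile of all genes tested. Its CON values were 10.08, 10.27, 9.75, 9.87 and 9.31. On HAMS the 8 rats were at 8.66, 9.04, 9.05, 9.10, 9.51, 10.13, 10.22 and 10.28, with no rat between 9.51 and 10.13. The lowest, median and highest values were 9.74, 9.86 and 10.65 on LAMS, 9.54, 9.81 and 10.15 on HAMSB, 9.57, 10.29 and 10.57 on LAW, and 9.16, 10.17 and 10.45 on HAW. HAMS thus held both the lowest values of the series and 3 values inside the upper part of the LAMS range. The difference from LAMS, -0.53 ± 0.21 (SE), missed the threshold (adjusted p = 0.0733, limma). Slc5a8 was higher on HAW than on HAMS by 0.59 ± 0.20 (SE, adjusted p = 0.0439) and higher on LAW than on HAMS by 0.66 ± 0.22 (SE, adjusted p = 0.0347). The HAW call was lost in 11 of 16 fits that left out 1 array, namely HAMS replicates 2, 4, 6, 7 and 8 and HAW replicates 1, 2, 3, 4, 6 and 7, with differences from 0.47 to 0.72 over those 16 fits. The LAW call was lost in 8 of 14, without HAMS replicates 2, 4, 6, 7 and 8 and LAW replicates 4, 5 and 6 (0.54 to 0.67).

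Bsg, the chaperone of Slc16a1 and Slc16a3, was higher on HAMSB than on HAMS. Its CON values were 11.07, 10.86, 11.09, 10.97 and 10.74. The lowest, median and highest values were 10.10, 10.57 and 11.14 on HAMS and 10.58, 10.90 and 11.23 on HAMSB. 4 of 8 HAMS rats lay below every HAMSB rat, while 1 HAMS rat at 11.14 was above all but 1 HAMSB rat. The means were 10.57 ± 0.29 (SD, n = 8) on HAMS and 10.94 ± 0.20 (SD, n = 9) on HAMSB. The difference was 0.37 ± 0.12 (SE, adjusted p = 0.0268, limma). It missed the threshold in 4 of 17 fits that left out 1 array: 0.30 without HAMS replicate 2 (adjusted p = 0.0917), 0.34 without HAMS replicate 4 (0.0621), 0.35 without HAMSB replicate 1 (0.0505) and 0.33 without HAMSB replicate 6 (0.0554). Against CON, HAMS was lower by 0.37 on the log2 scale (difference -0.37 ± 0.14 SE, adjusted p = 0.0384, limma), a call lost in 7 of 13 such fits, without CON replicates 1, 2, 3 and 4 and HAMS replicates 2, 4 and 6 (-0.40 to -0.31). On LAMS, LAW and HAW the Bsg means were 10.77, 10.72 and 10.72.

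Slc16a3, the lactate exporter MCT4, had diet means from 7.55 ± 0.31 (SD, n = 6) on LAW to 7.91 ± 0.34 (SD, n = 9) on HAMSB. All rats lay between 7.11 and 8.32. HAMSB minus HAMS was 0.34 ± 0.15 (SE) and missed the threshold (adjusted p = 0.100, limma).

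Hcar2, the butyrate and niacin receptor, was lowest on HAMS and was the receptor with a change in a pairwise comparison. Its CON values were 6.45, 5.84, 6.40, 6.06 and 5.57. The lowest, median and highest values were 5.16, 5.62 and 5.92 on HAMS and 5.78, 5.97 and 6.38 on HAMSB. 5 of 8 HAMS rats lay below every HAMSB rat, and 7 of 9 HAMSB rats lay above every HAMS rat. The means were 5.59 ± 0.26 (SD, n = 8) on HAMS and 6.03 ± 0.20 (SD, n = 9) on HAMSB. The difference was 0.44 ± 0.13 (SE), 1.35-fold, with an adjusted p of 0.0182 in limma. It was past the threshold in all 17 fits that left out 1 array, with values from 0.38 to 0.48. HAMS was also lower than CON by 0.47 on the log2 scale (difference -0.47 ± 0.15 SE, adjusted p = 0.0200, limma), a call lost without CON replicate 1 (-0.37, adjusted p = 0.0953) and without CON replicate 3 (-0.39, adjusted p = 0.0776). HAMS minus LAMS, -0.28 ± 0.14 (SE), missed the threshold (adjusted p = 0.141). The means on LAMS, LAW and HAW were 5.88, 5.96 and 5.76.

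Ffar3, the receptor for propionate and butyrate, ran the other way, with its highest means on HAMSB and HAMS, and no pairwise difference passed the threshold. Its CON values were 5.51, 5.40, 6.08, 5.95 and 5.78. The lowest, median and highest values were 5.63, 6.30 and 6.37 on HAMS, 5.82, 6.05 and 6.90 on HAMSB, and 5.49, 5.87 and 6.12 on LAMS. The means were 6.17 ± 0.28 (SD, n = 8) on HAMS, 6.21 ± 0.36 (SD, n = 9) on HAMSB and 5.74 ± 0.29 (SD, n = 5) on CON. HAMS minus CON was 0.43 ± 0.16 (SE, adjusted p = 0.0511, limma), HAMS minus LAMS was 0.32 ± 0.15 (adjusted p = 0.13), HAMSB minus LAMS was 0.36 ± 0.15 (adjusted p = 0.111) and HAMSB minus CON was 0.47 (adjusted p = 0.109). Among all genes, 0.841% were called between HAMSB and CON.

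The Ffar3 values also followed how the array files are named. The labels do not say what the naming stands for. 20 file names start with the diet code, 16 are in lower case and 7 start with the animal number. All 8 HAMS arrays have names starting with the diet code, against 0 of 5 CON arrays, 3 of 7 LAMS, 5 of 9 HAMSB, 1 of 6 LAW and 3 of 8 HAW. Ffar3 lay at 6.23 ± 0.30 (SD, n = 20) in the first kind, 5.73 ± 0.16 (SD, n = 16) in the second and 5.95 ± 0.11 (SD, n = 7) in the third. In LAMS it was 6.02 against 5.72 between the first and second kind, in HAW 6.19 against 5.78, and in LAW 6.57 (1 rat) against 5.79. With diet in the model, the first kind was higher than the second by 0.51 ± 0.10 (SE, adjusted p = 8.96e-05, limma). Of the 8 genes only Ffar3 passed this test, beside 44.9% of all genes, and Slc5a8 had -0.32 ± 0.17 (adjusted p = 0.123). With the file-name style as a block, Ffar3 HAMS minus LAMS was 0.03 and HAMS minus CON 0.04. In the same fit HAMSB minus LAMS was 0.20 (adjusted p = 0.434, limma) and HAMSB minus CON 0.22 (0.74). HAMS and CON share no file-name style, so their difference in that fit rests on style offsets taken from the other diets. Without that block, HAMS minus CON passed the threshold with arrays centred (0.60, adjusted p = 0.0345), with the B cell level as a covariate (0.51, 0.0338), with array weights (0.38, 0.0369) and with a trended prior (0.43, 0.0495). With array weights HAMS minus LAMS (0.40, adjusted p = 0.0261) and HAMSB minus LAMS (0.40, 0.0105) passed as well. Also without the block, array spread as a covariate gave -0.0056 for HAMS minus CON (adjusted p = 0.985, limma) and 0.02 for HAMS minus LAMS (0.948). Within the arrays named by diet code first, Ffar3 was 0.15 higher on HAMS than on LAMS (8 and 3 rats, adjusted p = 0.602) and 0.39 higher on HAMSB than on LAMS (5 and 3 rats, adjusted p = 0.182).

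**Figure D2:**
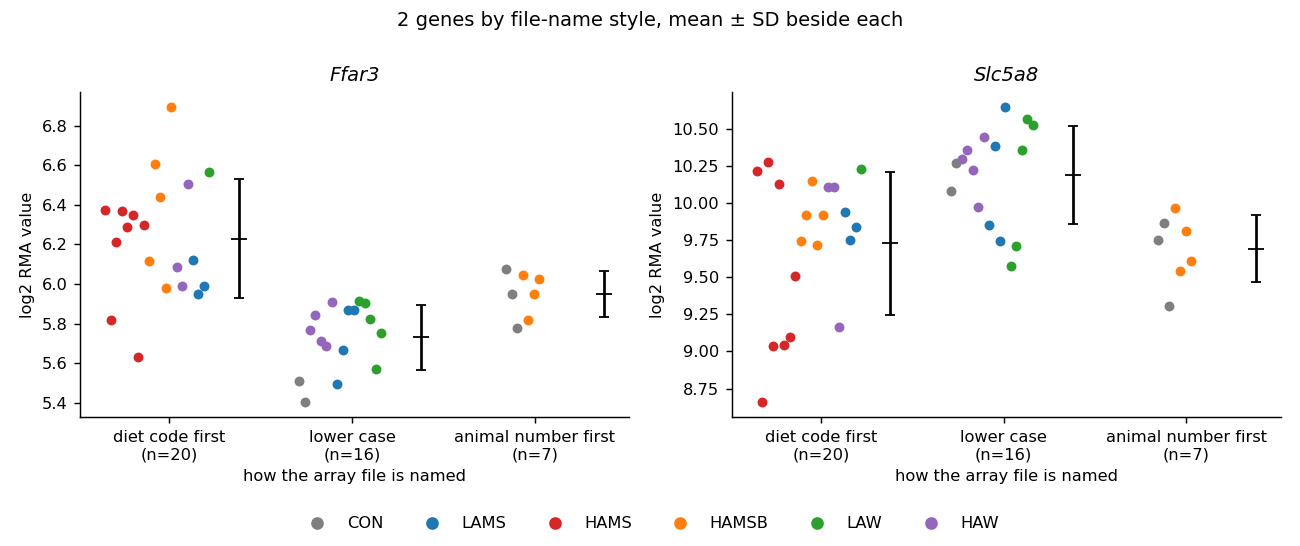
Log2 RMA values of Ffar3 and Slc5a8 (y axis) by how the array file is named (x axis), with 1 point per rat coloured by diet and the mean ± SD beside each set. For Ffar3 the 16 arrays with lower-case names all lie between 5.40 and 5.92, below the mean of 6.23 of the 20 arrays named by diet code first, which include all 8 HAMS rats.

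Ffar2, the acetate and propionate receptor, had diet means between 5.68 (HAMS) and 5.84 (HAMSB), and its SDs were between 0.14 and 0.34. All 43 rats lay between 5.40 and 6.39, and no comparison between diets passed the threshold.

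Acss2, the cytosolic acetyl-CoA synthetase, fell on HAMS relative to LAMS. Its CON values were 10.67, 10.55, 10.24, 10.42 and 10.12. The lowest, median and highest values were 10.20, 10.62 and 10.75 on LAMS and 9.32, 10.07 and 10.66 on HAMS. 5 of the 8 HAMS rats were below every LAMS rat, and 1 LAMS rat was above every HAMS rat. On HAMSB its values were 10.01, 10.36 and 10.56, on LAW 10.13, 10.55 and 10.83, and on HAW 9.94, 10.57 and 10.70. The means were 10.53 ± 0.19 (SD, n = 7) on LAMS and 10.04 ± 0.40 (SD, n = 8) on HAMS. The difference was -0.49 ± 0.13 (SE), 0.711 of the LAMS level (adjusted p = 0.0168, limma), and it was past the threshold in all 15 fits that left out 1 array. Acss2 was higher on HAW than on HAMS by 0.43 ± 0.13 (SE, adjusted p = 0.0273) and higher on LAW than on HAMS by 0.43 ± 0.14 (SE, adjusted p = 0.0342). The HAW call was lost without any one of HAMS replicates 2, 4 and 6 and HAW replicates 1, 2 and 3, and the LAW call without HAMS replicates 2, 4 and 6 and LAW replicates 4, 5 and 6 (lowest values 0.33 and 0.33).

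HAMS against LAMS addresses the effect of amylose content in maize starch. 2 of 8 genes fell (Slc16a1 and Acss2) and none rose, beside 14.1% of all genes called in either direction and 12% called lower. 7 of the 8 differences were below 0, as were 6809 of the 10934 genes tested, with a median of -0.24 beside -0.08 over all genes. Of all called genes, 1308 of 1545 were lower on HAMS, and after each array was centred on its median 466 of 950 were lower. With that centring no member was called: Slc16a1 was -0.43 (adjusted p = 0.0506) and Acss2 -0.38 (adjusted p = 0.0535). Within the arrays named by diet code first (8 and 3 rats) the differences were -0.67 (adjusted p = 0.0870) and -0.58 (adjusted p = 0.118), and with the file-name style as a block they were -0.51 (0.0512) and -0.48 (0.0405).

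HAMSB against HAMS addresses butyrylation of the same starch. 2 of 8 genes rose (Bsg and Hcar2), beside 16.7% of all genes called in either direction and 14.2% called higher. All 8 differences were above 0, as were 6634 of the 10934 genes tested, with a median of 0.33 beside 0.07 over all genes. Of all called genes, 271 of 1821 were lower on HAMSB, and 723 of 1632 were lower after centring, where Hcar2 was 0.37 (adjusted p = 0.0467) and Bsg 0.31 (adjusted p = 0.0591). Within the arrays named by diet code first (5 and 8 rats) Hcar2 was 0.47 higher (adjusted p = 0.0317) and Bsg 0.36 higher (adjusted p = 0.0794). These comparisons share the HAMS rats, so a rat that is low there enters each of them. HAMSB against LAMS gave 0 calls among the 8 genes (1 at an unadjusted p under 0.05) in limma, beside 6.78% of all genes. Its estimates were -0.18 for Slc16a1 (95% interval -0.47 to 0.12), -0.22 for Acss2 (-0.48 to 0.04), 0.17 for Bsg (-0.08 to 0.41), 0.16 for Hcar2 (-0.11 to 0.43) and -0.20 for Slc5a8 (-0.61 to 0.20). The intervals of these genes include 0 and do not show that the diets act alike. That of Ffar3 did not include 0: it was 0.36 (0.06 to 0.65, adjusted p = 0.111 in limma), the 1 gene with an unadjusted p under 0.05.

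HAW against HAMS compares the high-amylose diets of wheat and maize. 3 of 8 genes were higher on HAW (Slc16a1, Slc5a8 and Acss2), beside 13.3% of all genes called and 10.9% called higher, and the median over the 8 genes was 0.16 beside 0.07 over all genes. Of all called genes, 262 of 1458 were lower on HAW, and 458 of 990 after centring, when none of the 3 members was called (lowest adjusted p = 0.0556). Within the arrays named by diet code first (3 and 8 rats) the differences were 0.24 for Slc16a1, 0.30 for Slc5a8 and 0.31 for Acss2, with adjusted p of 0.777, 0.807 and 0.701 in limma. LAW against HAMS, with 14.2% of all genes called and 11.9% called higher, gave 2 of 8 (Slc5a8 and Acss2), and Slc16a1 was 0.42 higher (adjusted p = 0.0607). After centring neither of the 2 was called (Slc5a8 0.54, adjusted p = 0.0752; Acss2 0.31, adjusted p = 0.115), nor with the style block (0.40 and 0.41, adjusted p = 0.334 and 0.168) or the epithelial level (0.25 and 0.14, 0.273 and 0.260). With the B cell level Acss2 was 0.27 (adjusted p = 0.0470) and Slc5a8 0.44 (0.0560). HAMS against CON called 26.1% of all genes and 21.6% as lower, with Bsg and Hcar2 as the 2 members called. Neither call held after centring, where Bsg was -0.20 (adjusted p = 0.279) and Hcar2 -0.30 (adjusted p = 0.163). With the B cell level as a covariate they were -0.15 and -0.29, and with the epithelial level -0.11 and -0.29, with a lowest adjusted p of 0.119 in limma. With the file-name style as a block, Bsg was -0.39 (adjusted p = 0.0911) and Hcar2 -0.59 (0.0267). HAMS and CON share no file-name style, so these last 2 values rest on style offsets taken from the other diets. They cannot show whether the differences hold within a style.

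**Figure D3:**
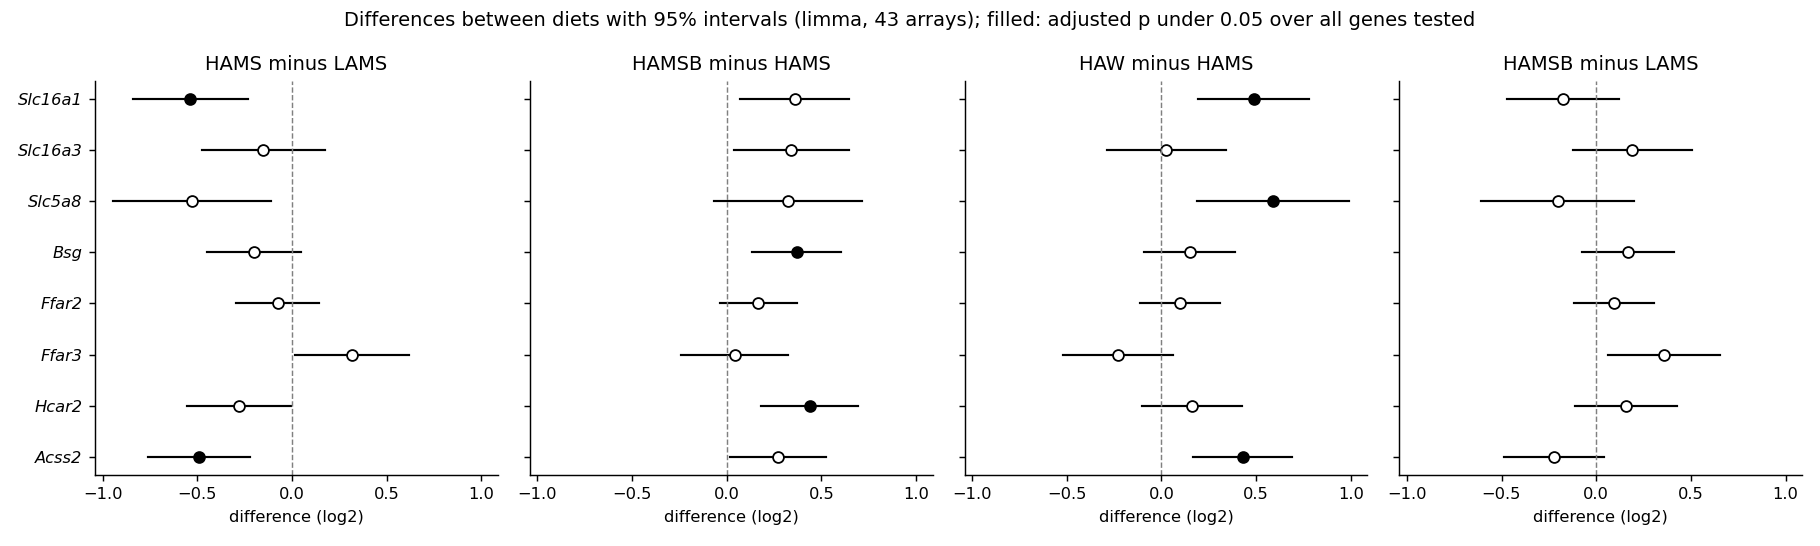
Differences between diets in log2 units (x axis) with 95% intervals for the 8 genes (y axis) in 4 comparisons, from 1 limma fit of 43 arrays. Filled points have an adjusted p under 0.05 over the 10934 genes tested: 2 on HAMS against LAMS, 2 on HAMSB against HAMS, 3 on HAW against HAMS and none on HAMSB against LAMS.

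The low-amylose Western diet against control (LAMS minus CON), high- against low-amylose wheat (HAW minus LAW) and wheat against maize at low amylose (LAW minus LAMS) gave 0 calls among the 8 genes and 0% of all genes in limma. At an unadjusted p under 0.05 there were 0 of the 8 genes in each of these comparisons, and 938, 212 and 192 of all genes. In HAW minus LAW, Slc16a1 was 0.06 (95% interval -0.26 to 0.38), Slc5a8 was -0.08 (-0.51 to 0.36) and Acss2 was -0.00 (-0.29 to 0.28). An interaction term, the difference HAW minus LAW less the difference HAMS minus LAMS, tests whether the amylose difference is unlike in wheat and maize. Of all genes 0.0274% passed that test, and none of the 8 did (2 at an unadjusted p under 0.05). For Slc16a1 the difference of effects was 0.60 ± 0.22 (SE, adjusted p = 0.207) and for Acss2 0.49 ± 0.19 (adjusted p = 0.244), so the fall on HAMS is not shown to differ from the wheat comparison.

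Neighbouring genes of the pathway were read from 4 lists, whose counts stand beside 12% of all genes called lower on HAMS minus LAMS, 14.2% called higher on HAMSB minus HAMS and 10.9% called higher on HAW minus HAMS. In butyrate oxidation and ketone bodies, 6 of 13 listed genes were tested. Acaa2, a mitochondrial thiolase, fell on HAMS against LAMS by 0.65 (difference -0.65 ± 0.17 SE, adjusted p = 0.0129), the only call of the 6. On HAMSB against HAMS 3 of 6 rose: Acaa2 by 0.53 ± 0.16 (adjusted p = 0.0191), Hadh by 0.41 ± 0.12 (0.0191) and Acads, the short-chain acyl-CoA dehydrogenase that starts butyrate oxidation, by 0.47 ± 0.16 (0.0398). The medians of the 6 were -0.34 and 0.33 in these comparisons. Of 17 fits that left out 1 array, the HAMSB against HAMS call was lost in 10 for Acads, 2 for Hadh and 1 for Acaa2. The HAMS against LAMS call of Acaa2 was lost in 0 of 15.

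In acetate and propionate use, 7 of 9 were tested. Pcca and Pccb, the subunits of propionyl-CoA carboxylase, fell on HAMS against LAMS by 0.69 and 0.50 (differences -0.69 ± 0.15 and -0.50 ± 0.15 SE, adjusted p = 0.00818 and 0.0244), as did Acss3 (-0.68 ± 0.20, adjusted p = 0.025), giving 3 of 7 lower. On HAMSB against HAMS 4 of 7 rose: Acacb by 0.41, Pcca by 0.59, Pccb by 0.54 and Mcee, the next enzyme of propionate breakdown, by 0.59 (adjusted p = 0.00386, 0.00607, 0.00816 and 0.0188). On HAW against HAMS 4 of 7 were higher, led by Pcca at 0.82 ± 0.15 (adjusted p = 0.00309) and Acss3 at 0.73 ± 0.19 (0.0162). Of 15 fits that left out 1 array, the HAMS against LAMS call was lost in 5 for Acss3, 3 for Pccb and 0 for Pcca. The HAMSB against HAMS call was lost in 2 of 17 for Mcee and 0 for Acacb, Pcca and Pccb.

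Among the other monocarboxylate, bicarbonate and proton transporters, 10 of 13 were tested. Slc4a2, a chloride-bicarbonate exchanger, fell on HAMS against LAMS (-0.44 ± 0.11 SE, adjusted p = 0.0129), the only call of the 10. On HAMSB against HAMS 3 rose and 1 fell: Slc4a2 by 0.55 ± 0.10 (adjusted p = 0.00133), the sodium-proton exchanger Slc9a3 by 1.31 ± 0.39 (0.0192), Abcg2 by 0.66 ± 0.24 (0.0475), and Slc16a6 with -0.66 ± 0.22 (0.035). On HAW against HAMS 3 were higher: Slc4a2 (0.37), Slc9a2 (0.59) and the chloride-bicarbonate exchanger Slc26a3 (0.55), with adjusted p of 0.0222, 0.046 and 0.0427. Of 17 fits that left out 1 array, the HAMSB against HAMS call was lost in 13 for Abcg2, 9 for Slc16a6, 1 for Slc9a3 and 0 for Slc4a2. The HAW call was lost in 11 of 16 for Slc9a2, 10 for Slc26a3 and 4 for Slc4a2.

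Of the other metabolite receptors and signal proteins, 10 of 13 were tested. Ffar4, a receptor for long-chain fatty acids, and the G protein subunit Gnaq both fell on HAMS against LAMS (-0.50 ± 0.16 and -0.36 ± 0.10 SE, adjusted p = 0.0341 and 0.0153) and rose on HAMSB against HAMS (0.46 ± 0.15 and 0.33 ± 0.09, adjusted p = 0.0338 and 0.0122). Gna11 rose (0.42 ± 0.14, 0.0395) and Gnai2, an inhibitory subunit, fell (-0.36 ± 0.13, 0.04997) in the latter. Of 17 fits that left out 1 array, the HAMSB against HAMS call was lost in 12 for Gnai2, 10 for Gna11, 9 for Ffar4 and 0 for Gnaq. The HAMS against LAMS call was lost in 10 of 15 for Ffar4 and 0 for Gnaq. No gene of the 4 lists was called between HAMSB and LAMS. Leaving out arrays is the milder check. Of 43 calls examined, of members and related genes together, 2 held with the epithelial marker level as a covariate and 17 with centring.

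**Figure D4:**
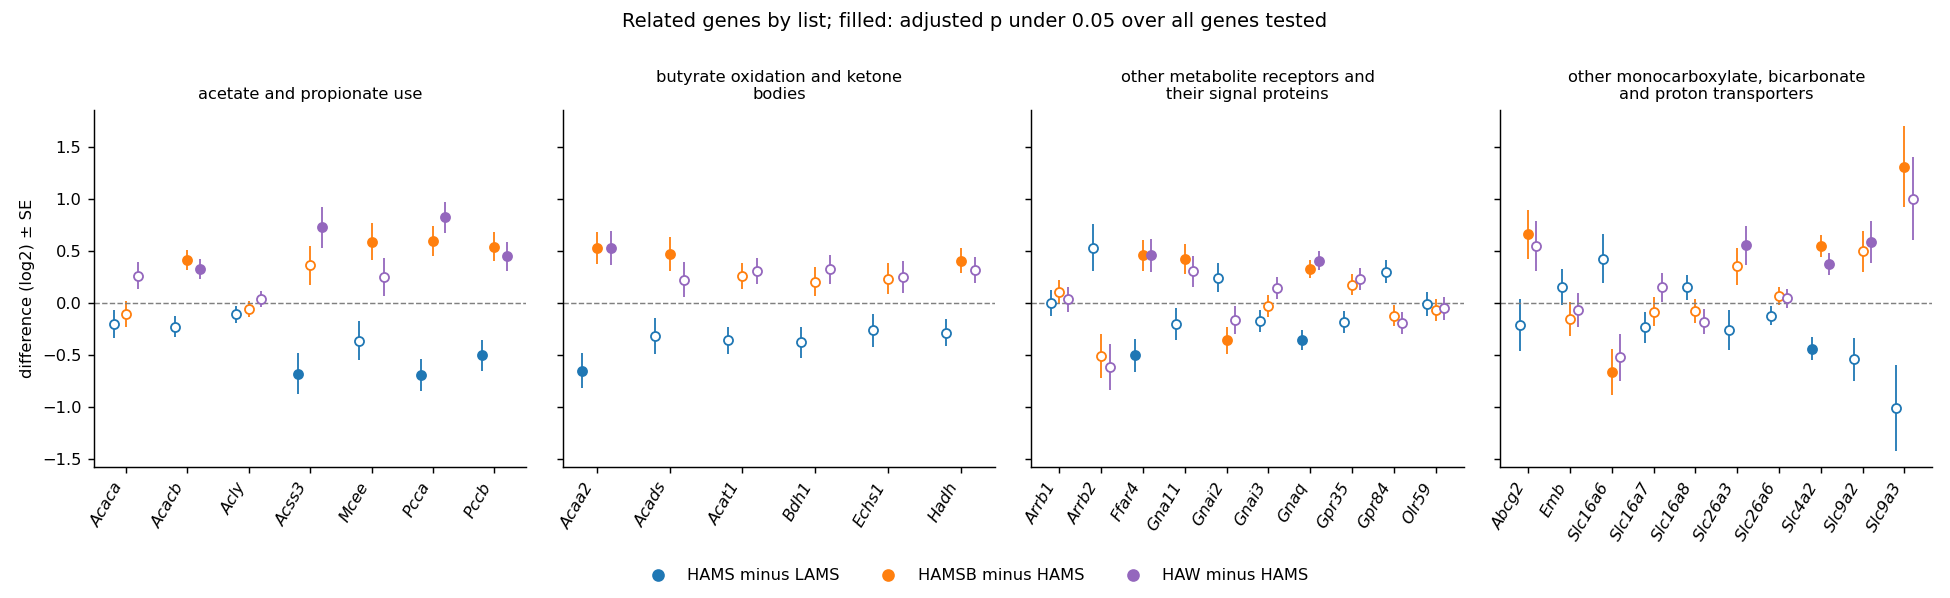
Differences in log2 units ± SE (y axis) for the tested genes of 4 related lists (x axis) in 3 comparisons that share the HAMS rats. Filled points have an adjusted p under 0.05 over all genes tested, such as Pcca at -0.69, 0.59 and 0.82 and Slc4a2 at -0.44, 0.55 and 0.37.

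The level of B cell markers moved with several of these genes. The colon wall holds lymphoid follicles, where B cells gather. The level is the mean log2 value of the 7 tested markers of 13 listed (Cd79b, Cr2, Spib, Cxcr5, Cd22, Blk and Bcl6). It fell into 2 clusters with no array between 5.85 and 6.46: 25 arrays below and 18 above. The upper cluster held 1 of 5 CON, 3 of 7 LAMS, 6 of 8 HAMS, 3 of 9 HAMSB, 2 of 6 LAW and 3 of 8 HAW rats. The level ranged from 5.30 to 9.12 on HAMS (mean 7.62 ± 1.40, SD, n = 8), from 5.31 to 8.64 on LAMS (6.46 ± 1.43, n = 7) and from 5.45 to 8.13 on HAMSB (6.20 ± 1.02, n = 9). In exact permutation tests (2-sided, adjusted over 27 tests) HAMS minus LAMS was 1.16 (adjusted p = 0.184) and HAMSB minus HAMS -1.42 (adjusted p = 0.0982). Within the arrays named by diet code first they were 2.28 (8 and 3 rats) and -1.84 (5 and 8 rats), with exact permutation adjusted p of 0.0818 and 0.0727 over 9 tests. The epithelial level was 0.30 lower on HAMS than on LAMS (difference -0.30, exact permutation adjusted p = 0.137) and 0.30 higher on HAMSB than on HAMS (0.0982). The enteroendocrine level, of cells that carry Ffar2 and Ffar3 as well as hormones, was 0.34 higher on HAMSB than on HAMS (exact permutation adjusted p = 0.0463). Within the arrays named by diet code first it was 0.43 higher (exact permutation adjusted p = 0.0699). With diet means removed, this level had r of 0.34 with Ffar2 and 0.29 with Ffar3. Over the 8 genes r ran from 0.28 (Slc16a3) to 0.82 (Bsg). Of the 27 tests 2 others passed: the adipocyte level was 1.14 higher on HAW than on HAMS (exact permutation adjusted p = 0.0168), and the spread of an array's values, its interquartile range, was lower on HAMS than on LAMS (-0.20, 0.0463). T cell, absorptive colonocyte and smooth muscle levels on HAMSB minus HAMS were -1.36, 0.59 and 0.32, each with an exact permutation adjusted p of 0.0982. The part of these levels in the diet differences was not tested.

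With diet in the limma model, 5 of the 8 genes had a negative slope past the threshold on the B cell level. Over all genes 53.4% had a slope past it in either direction, so 5 of 8 is close to that share, which leaves direction and size aside. Among the slopes of all genes tested, Slc5a8 lay at percentile 1.18, Slc16a1 at 6.70 and Acss2 at 7.14. Bsg lay at 9.33 and Hcar2 at 16.1, and Slc16a3, Ffar2 and Ffar3 between 36.1 and 47.0. The slopes per log2 unit of the B cell level were -0.22 ± 0.04 (SE) for Slc5a8, -0.16 ± 0.03 for Slc16a1, -0.16 ± 0.02 for Acss2, -0.15 ± 0.02 for Bsg and -0.12 ± 0.03 for Hcar2, with the highest adjusted p at 0.000299. On the epithelial level 6 of 8 had a positive slope past the threshold, beside 50% of all genes with a slope past it in either direction: Slc5a8 1.43 ± 0.18, Slc16a1 1.12 ± 0.12, Acss2 1.03 ± 0.10, Bsg 0.91 ± 0.10, Hcar2 0.59 ± 0.16 and Ffar2 0.33 ± 0.14 (adjusted p = 0.0437). On the epithelial level the percentiles were 99.4 for Slc5a8, 96.3 for Slc16a1, 94.3 for Acss2, 90.9 for Bsg, 78.9 for Hcar2 and 64.4 for Ffar2. The shares of all genes by direction of slope are not given. Slc16a3 and Ffar3 had no slope past the threshold on either level. Among the HAMS rats, replicates 1 and 5, the HAMS rats in the lower cluster with B cell levels of 5.30 and 5.65, had Slc5a8 at 10.22 and 10.13 and Acss2 at 10.66 and 10.27. Replicate 2, with the highest B cell level of 9.12, had the lowest values of Slc16a1 (9.25), Slc5a8 (8.66), Bsg (10.10) and Acss2 (9.32). Replicate 3 did not follow this order: its B cell level was 7.55, in the upper cluster, and it had the highest Slc5a8 of the HAMS rats (10.28), with Slc16a1 (10.16) and Bsg (10.68) above those of replicate 5 (10.10 and 10.50). With the B cell level as a covariate, HAMS minus LAMS was -0.35 for Slc16a1 (adjusted p = 0.0509) and -0.31 for Acss2 (adjusted p = 0.0359). HAMSB minus HAMS was 0.27 for Hcar2 (adjusted p = 0.198) and 0.16 for Bsg (0.325). With the epithelial level as a covariate none of these 4 differences passed, at -0.20, -0.18, 0.26 and 0.10. In these fits Acss2 was called lower on HAMSB than on LAMS, at -0.26 (adjusted p = 0.0355) with the B cell level and -0.22 (adjusted p = 0.0275) with the epithelial level. The part of either cell type in the diet differences was not tested beyond these fits.

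**Figure D5:**
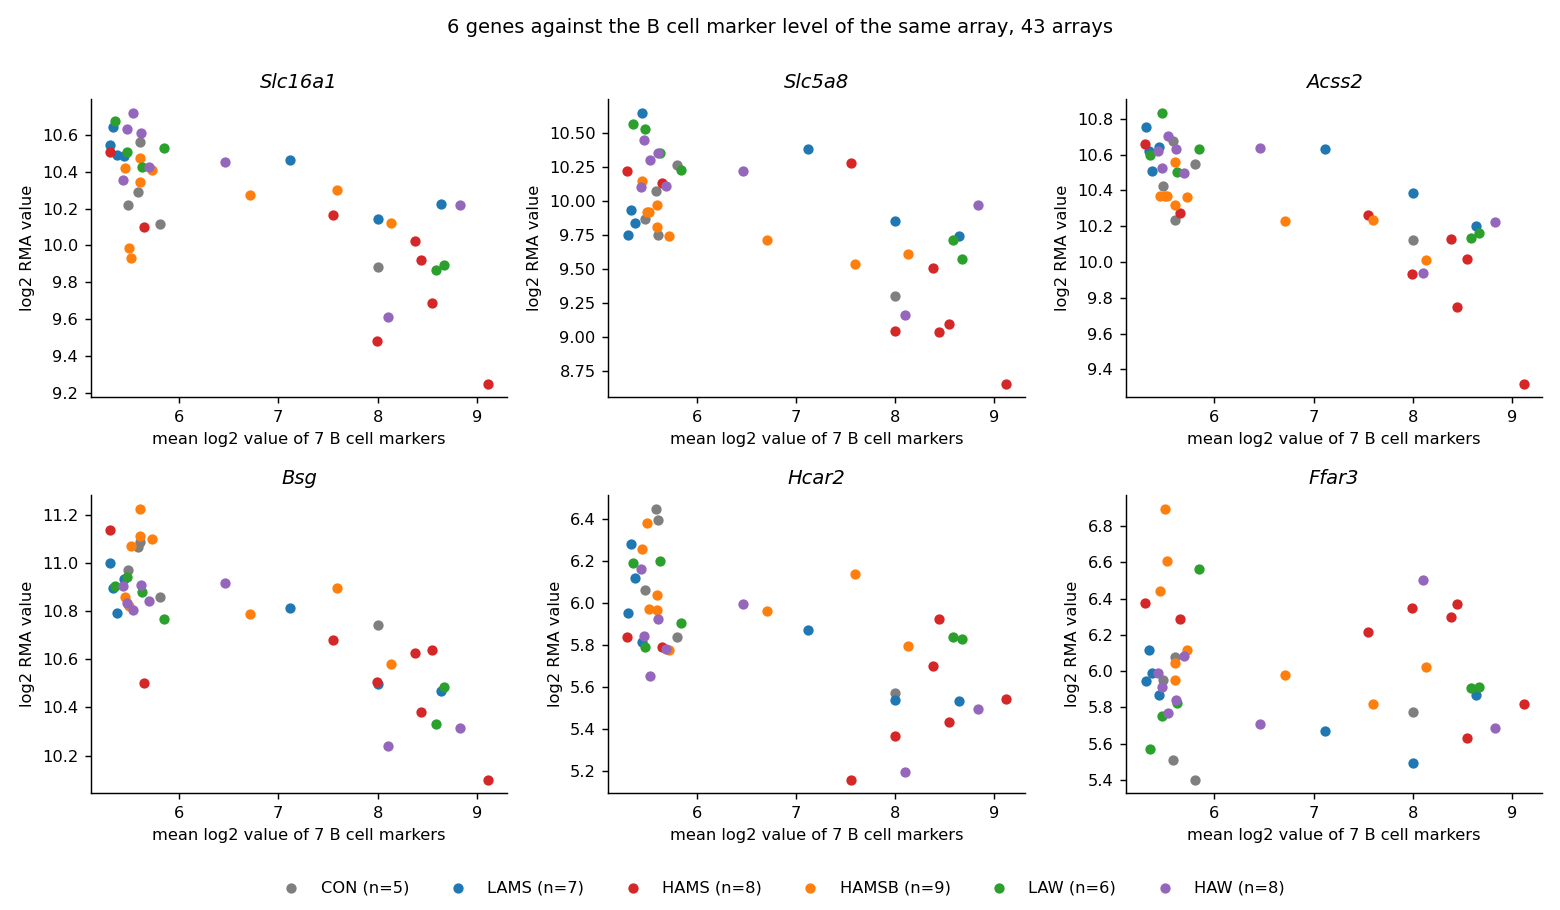
Log2 RMA values of 6 genes (y axis) against the mean log2 value of 7 B cell markers in the same array (x axis), 1 point per rat, coloured by diet. The arrays form a cluster of 25 below 5.85 and one of 18 above 6.46, and the 6 HAMS rats above the gap include the lowest values of Slc16a1, Slc5a8, Bsg and Acss2.

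Correlations between the genes were taken within each cluster, with diet means removed. Above the gap (17 rats, leaving out the lone CON rat), all 6 pairs among Slc16a1, Slc5a8, Bsg and Acss2 were correlated, with Pearson's r from 0.70 to 0.93 and Spearman's rho from 0.66 to 0.95 (permutation tests, 100000 resamples, highest adjusted p of r 0.0182 over 56 relations). Without the 2 rats farthest from the median, r was between 0.58 and 0.90. Below the gap (25 rats) r for the same pairs was between -0.05 and 0.48, and none passed (lowest permutation adjusted p 0.0949). Over all 28 pairs of the 8 genes, 8 passed above the gap and 0 below it, where 4 had an unadjusted p under 0.05. The difference between the clusters was not tested, and the clusters were drawn after the values were seen. Slc16a3 correlated above the gap with Bsg (r = 0.82, rho = 0.80, permutation adjusted p = 0.00056) and with Acss2 (r = 0.64, rho = 0.69, 0.0361). Within file-name styles, over both clusters, r for the 6 pairs was between 0.70 and 0.91 in arrays named by diet code first and between 0.85 and 0.92 in those in lower case, but for Slc16a3 and Bsg it was 0.18 and 0.31.

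The relation to the epithelial level was positive in both clusters for Slc16a1 (r = 0.54 and rho = 0.51 below, r = 0.84 and rho = 0.78 above, permutation adjusted p of r 0.0211 and 0.000213 over 32 relations) and for Bsg (r = 0.63 and rho = 0.75 below, r = 0.89 and rho = 0.86 above, 0.00165 and 0.00016). Leaving out the 2 farthest rats gave r of 0.61 and 0.74 for Slc16a1 and 0.59 and 0.81 for Bsg. For Slc5a8 r was -0.02 below the gap (25 rats, permutation adjusted p = 0.933) and 0.82 above it (17 rats, 0.0004), and for Acss2 it was 0.36 (0.147) and 0.94 (0.00016). Within arrays named by diet code first, r over both clusters was 0.89 for Slc16a1, 0.83 for Bsg, 0.82 for Slc5a8 and 0.95 for Acss2. Over all 43 arrays Hcar2 had r of -0.67 with the level of neutrophil and macrophage markers (permutation adjusted p = 2.67e-05). With the B cell level its r was -0.58, and with the epithelial level 0.51.

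The genes most alike to each member in their variation within diets were ranked by Pearson's r over 43 arrays, as a description. Slc5a8 was most like Bmpr1a, Slc44a1 and Ctbp2 (r = 0.94, 0.94 and 0.92), and Slc16a1 most like Fam83f, Ryk and Rnf103 (0.90, 0.88 and 0.87). Bsg was most like Fcgrt, Tmem98 and Pygb (0.91, 0.91 and 0.90) and Acss2 most like Ush1c, Fuca2 and Mep1b (0.92, 0.91 and 0.91). The arrays share the B cell clusters, and in the 25 arrays below the gap r was 0.66 (Bmpr1a), 0.67 (Fam83f), 0.71 (Fcgrt) and 0.59 (Ush1c). The leading genes were chosen over all 43 arrays, so r within a part of those arrays is not a separate test. Ffar3 was most like Foxj1, Col27a1 and Dlk1 (0.88, 0.86 and 0.85), with r of 0.90, 0.88 and 0.91 below the gap. Within the lower-case file names those 3 values were 0.67, 0.50 and 0.74. Hcar2 was most like Elf3, Nuak2 and Mafk (0.74, 0.72 and 0.72), Slc16a3 most like Paqr5, Tmem37 and Synpo (0.65, 0.65 and 0.64), and Ffar2 most like Atp7b, Kctd11 and Slc41a2 (0.58, 0.58 and 0.57).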

How the data were processed

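RNA of the distal colon of 43 rats was hybridised to Affymetrix arrays, 1 rat per array, and RNA of insufficient quality was not arrayed, per the labels. The deposited values are log2 intensities. The submitters' processing notes name RMA as the authors' tool, and its version is not given in the sources used here. The deposited arrays did not share 1 distribution: the interquartile range was 2.68 to 3.40 log2 units over the arrays. Nothing was renormalised for the reported values. Of 29214 probe sets, 15310 carried 1 symbol, 323 several and 13581 none. Per symbol the probe set of highest mean was kept, and genes with a median under the 25th percentile (4.75 log2) were left out, leaving 10934. Limma 3.58.1 in R 4.3.3 (lmFit, eBayes, all 43 arrays, diet as factor) gave differences with Benjamini-Hochberg adjusted p over all genes tested, at a threshold of 0.05. The script was checked on simulated data. Marker levels were compared by exact permutation tests and correlations by permutation tests of 100000 resamples, both 2-sided, in Python 3.11.15 with scipy 1.17.1.

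The members and lists were chosen with earlier results of these data known. The text names every member, the called genes of the related lists, and the 3 genes most correlated with each member. No array carries a read depth, so the number of arrays limits the precision. Replicate numbers did not pair the samples. Alternatives covered filters, probe set choice, array weights, centring, blocks, covariates and arrays left out.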

Additional observations from a re-analysis of the deposited data

Results flagged for a closer look

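In 3 of 48 sets of values of 1 gene in 1 diet, a rat lay far from the others by Dixon's criterion at the 95% level, which chance meets in about 1 of 20 sets. Ffar3 in LAW replicate 2 was 6.57, against 5.92 in the next rat and 5.57 in the lowest, a gap of 0.655 of the range. That array is the one LAW array whose file name starts with the diet code. Slc16a1 in HAW replicate 8 was 9.61, against 10.22 in the next rat, a gap of 0.551 of the range. Slc5a8 in the same rat was 9.16, against 9.98 in the next, a gap of 0.632 of the range. HAW replicate 8 also had the narrowest spread of values among the HAW arrays (interquartile range 2.68), the lowest epithelial level of the HAW rats (10.73) and a B cell level of 8.10, in the upper cluster. The part of these in the 2 values was not tested.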

How the results depend on the processing

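Of 63 differences of single genes examined, 43 were past the threshold. The related genes entered only with differences past it, so 43 of 63 is not a rate of calls. Of these 43, 39 kept their direction under every alternative run, 14 kept the call with each array left out in turn and 1 under every alternative (Slc4a2, HAMSB minus HAMS). The F test, with 3 genes called, gave 6 with array weights, 1 with all probe sets, 1 with the epithelial level as a covariate, and 0 with arrays centred, with the replicate block, with the file-name style as a block, with array spread as a covariate, or with style and B cell level together. HAMS minus LAMS, with 2 called, gave 4 with array weights, 1 with the replicate block, the style block or the B cell level, and 0 with centring, the epithelial level, array spread, style with B cell level, or only the diets compared. HAMSB minus HAMS, with 2 called, gave 4 with array weights, 1 with the stricter filter, where Hcar2 was not tested, 1 with centring, and 0 with the B cell level, the epithelial level, or style with B cell level. HAW minus HAMS, with 3 called, gave 4 with array weights, 2 with no filter, all probe sets, the replicate block or the animal-number block, where Slc5a8 was lost, and 0 with centring, the style block, the B cell level, the epithelial level, array spread, style with B cell level, or only the diets compared. HAMSB minus LAMS, with 0 called, gave 1 with array weights, the B cell level or the epithelial level, and the amylose interaction, with 0, gave 2 with array weights. The cause was not tested. Leaving out 1 array gave 0 to 5 for the F test, 1 to 3 for HAMS minus LAMS, 1 to 4 for HAMSB minus HAMS, 0 to 3 for HAW minus HAMS and 0 elsewhere. With style and B cell level together the sign turned for Slc5a8 (HAMS minus LAMS 0.066, HAMSB minus HAMS -0.085, HAW minus HAMS -0.050, LAW minus HAMS -0.032, interaction -0.083), Bsg (HAMS minus LAMS 0.041, HAMS minus CON 0.017), Slc16a1 (HAMSB minus HAMS -0.038) and Slc9a2 (HAW minus HAMS -0.042). With the epithelial level it turned for Bsg (HAMS minus LAMS 0.075), Acss2 (HAMSB minus HAMS -0.040) and Slc5a8 (HAMSB minus HAMS -0.11, interaction -0.048). HAMSB minus LAMS turned for Slc5a8 with the style block (0.055) and within the arrays named by diet code first (0.045), and there also for Hcar2 (-0.050). Ffar3 HAMS minus CON was -0.0056 with array spread as a covariate. Same-numbered samples had a mean correlation of -0.06 and 4 of 43 arrays correlated best with their own number, so the samples share only a number; the replicate block changed 12 of 43 calls. Without the 2 arrays of lowest spread, an alternative chosen after seeing the data, 36 of 43 calls held. Far fewer of the 43 held with some other alternatives. These were 2 with the epithelial level, 3 with style and B cell level together and 11 with the B cell level. With array spread as a covariate 15 held, and with centring 17. All 43 held with array weights.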
